A study of Homo sapiens with 12 samples.

Results

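The DEAD and DEAH box RNA helicases are enzymes that use ATP to unwind or clamp RNA and to strip proteins from it. They are named DDX and DHX after a short sequence of amino acids in the motif that binds ATP. The genes described here were chosen by their symbol alone: every probe set whose single gene in the platform annotation begins with DDX or DHX and a digit, with the eIF4A genes left out. That rule took 70 of the 22277 probe sets and 42 of the 11963 genes that have a probe set of their own. Of the 42 genes, 41 are helicase genes, and 1 is DHX9-AS1, an antisense transcript that matches by its letters only. No measured value entered the rule, but the family was selected on earlier results of these same arrays, so the counts below describe it and are not independent support for a pattern.

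The samples are RNA from MDA-MB-231, an established human triple-negative breast cancer cell line. The RNA came down either with eIF4E, a cap-binding protein that starts translation, or with control IgG. The 4 groups held 3 arrays each, described as biological replicates. They were untreated cells precipitated with control IgG, cells precipitated with IgG at 6 h after 2 Gy of X-rays, untreated cells precipitated with an antibody to eIF4E, and cells precipitated with that antibody at 6 h after 2 Gy. All groups came from this 1 cell line, with no transgene or knockdown named, and no input RNA was analysed here. A difference between antibodies therefore compares 2 precipitates, and how much of an RNA the cells held and what share of it was bound to eIF4E cannot be told apart. In bulk precipitates, fewer cells that hold an RNA and less RNA per cell cannot be told apart either.

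As background, helicases of this family act at each step in the life of an RNA. In the nucleolus they remodel the ribosomal RNA precursor, in the nucleus they drive the spliceosome and load and release mRNA export factors, and in the cytoplasm they open structured leaders ahead of the scanning ribosome or hold mRNAs in a repressed state. The eIF4A helicases, which are DEAD box proteins too, work within the same cap-binding complex as eIF4E. What the arrays measured here is the mRNA that encodes each helicase, not the helicase protein.

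Of the 42 genes, 33 were bright enough to be tested, at or above a signal of 57.4, which is the 40th percentile of all genes. The other 9 were under that filter: DDX4 and DDX43, which are germline helicases, DDX25, DDX3Y, DDX51, DHX38, DHX58, DHX9-AS1 and the probe set that stands for DDX11. The filter takes the mean over all arrays, so a gene bright with only 1 antibody could also pass. DDX6, which passed through its IgG arrays, and DHX34, which passed through its eIF4E arrays, are 2 such genes. For 17 genes several probe sets were present, and the brightest of them on average stood for the gene, with the less specific kind (identifiers ending in _x_at) used only where there was no other. Differences are eIF4E minus IgG, on the scale of log2(signal + 16), from a limma fit over all 12 arrays, with p-values adjusted by the Benjamini-Hochberg method over all 7178 tested genes and a threshold of 0.05.

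Some array measures moved with the antibody, and they stand beside every comparison of eIF4E with IgG below. The Alu repeat probe lay between 36876 and 53246 with IgG and between 13482 and 18476 with eIF4E. For actin, the signal of the 3' probe set over that of the 5' one, which rises when RNA is shortened, was between 2.96 and 5.38 with IgG and between 1.33 and 1.53 with eIF4E, and for GAPDH it was between 2.03 and 2.78 and between 1.13 and 1.31. Hybridization control signals were 6.08-fold brighter on IgG arrays, a gap of 2.60 on the log2 scale, and poly-A control signals were 45.6-fold brighter, a gap of 5.51 (519.5 to 1266 with IgG and 13.8 to 24.1 with eIF4E). Scaling on the hybridization or on the poly-A controls would add 2.60 or 5.51 to every gene's difference, so "lower" here means lower relative to the rest of the same array. The part of these measures in the differences was not tested. Log2 values of arrays of the same group, with the same antibody and treatment, correlated at 0.956 to 0.976 for IgG and 0.978 to 0.991 for eIF4E. Of the markers of this mesenchymal line (VIM, CD44, ZEB1, EGFR, CAV1, AXL and MSN), 7 of 7 were over a signal of 100 on every array. The luminal genes ESR1, PGR, CDH1 and FOXA1 were not, but ERBB2, GATA3 and KRT19 were, and of 12 liver, leukocyte, neuron and muscle genes 0 were.

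The mRNAs of most helicases were lower in the eIF4E precipitates than in the IgG precipitates. Averaged over treatments, 21 of the 33 tested genes fell, against 38.2% of all tested genes, 1 rose, against 32.5% of all, and 11 did not pass the test. Of the 31 genes left without DDX6 and DHX34, 20 fell and 1 rose. The median difference was -0.73 over the 33 genes and -0.074 over all genes. For 15 of the 33 every eIF4E array lay below every IgG array, against 26.7% of all genes, and for 1, DDX41, every eIF4E array lay above, against 23.1% of all genes. A fall of at least 2-fold was seen for 10 of the 33, against 13.9% of all genes, and a rise of that size for 0. The share of all genes with such a rise was not computed, so that 0 is not read as particular to the family. The DDX symbols held 22 tested genes, of which 15 fell, DDX6 among them, and 1 rose (median -0.75). The DHX symbols held 11, of which 6 fell and 0 rose (median -0.33).

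**Figure D1:**
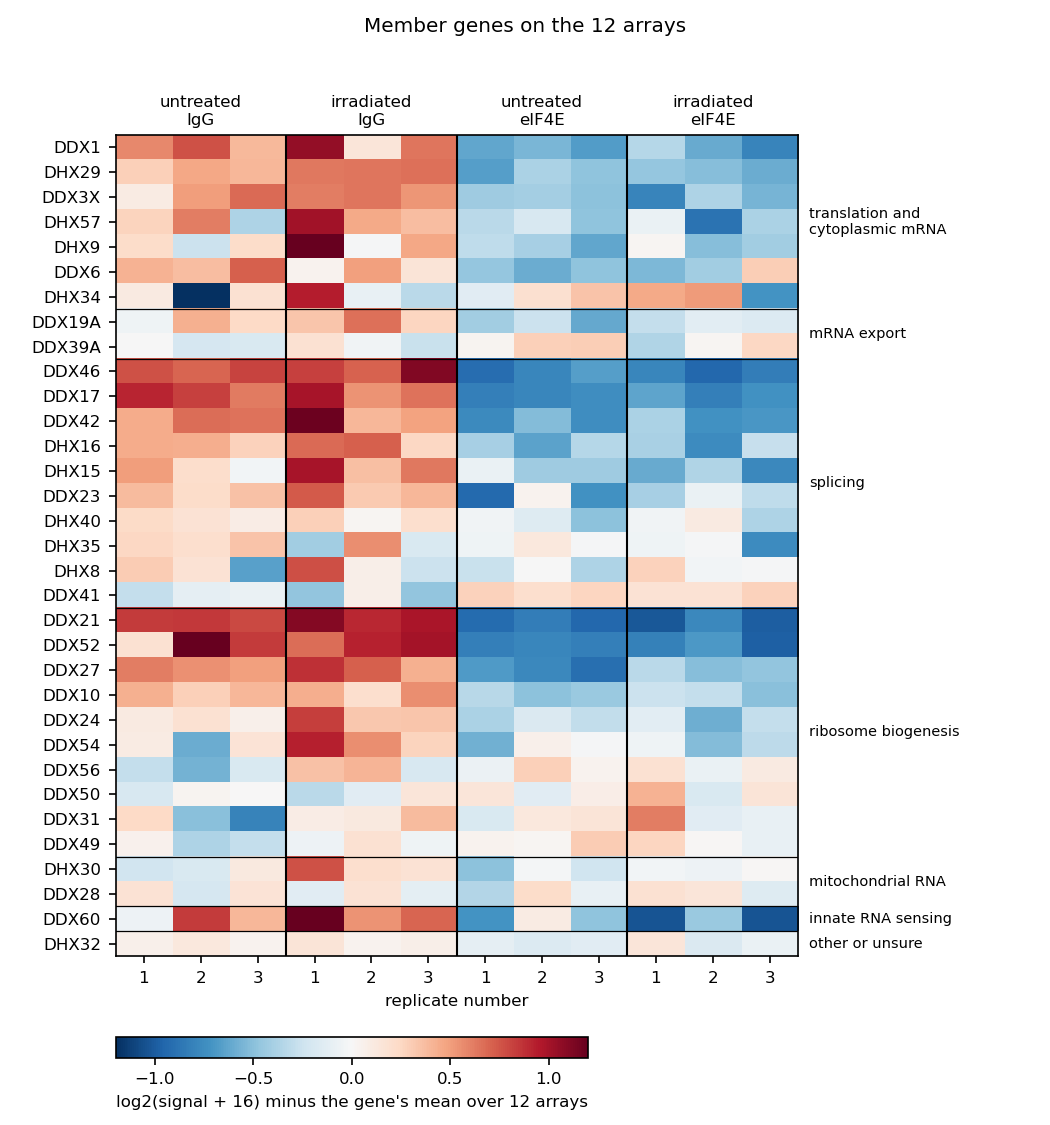
Heat map of the 33 tested helicase genes (rows, grouped by known role) on the 12 arrays (columns, by group and replicate number), with colour giving log2(signal + 16) minus the gene's mean over the 12 arrays. Values beyond 1.2 in either direction have the end colour. Most rows are red on the 6 IgG arrays and blue on the 6 eIF4E arrays, DDX41 is the reverse, and replicate 1 of irradiated IgG is the darkest red in many rows.

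Replicate 1 of irradiated IgG stood apart from the other arrays, both in this family and over all genes. It gave the highest of 12 signals for 17 of the 33 genes. Over all genes it did so for 18.2%, and each other array for 5.57% to 9.91%. Replicates 2 and 3 of the same group were highest for 4 and 3 of the 33. Without that array 20 of the 33 genes fell and 1 rose for the average over treatments, compared with 21 and 1 when it was kept. For some results below the value without it is given too.

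DDX21, a nucleolar helicase that acts in ribosomal RNA synthesis and processing, had the lowest difference of the family. Its signals were 4775, 4804 and 4619 in untreated IgG and 5735, 4987 and 5255 in irradiated IgG. In the eIF4E precipitates they were 1398, 1493 and 1375 from untreated cells and 1302, 1548 and 1335 from irradiated cells. The groups of the 2 antibodies were far apart, and within each antibody the arrays lay close together. DDX21 fell by 1.82 on the log2 scale (SE 0.09, n = 6 against 6, limma adjusted p = 1.71e-10), which is 3.54-fold, and had rank 76 from the lowest of 7178 genes. DDX46, the helicase that remodels the U2 snRNP at the branch site, came next. Its IgG signals were 2851, 2729 and 2957 from untreated and 2977, 2744 and 3626 from irradiated cells, and its eIF4E signals were 879, 965 and 1052 from untreated and 966, 866 and 934 from irradiated cells. It fell by 1.64 (SE 0.10, limma adjusted p = 7.98e-10), at rank 157, just ahead of DDX52, which fell by 1.64 (SE 0.16, limma adjusted p = 1.80e-07) at rank 158.

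DDX41, a helicase of the catalytic spliceosome that is also known as a gene of inherited leukaemia risk and as a DNA sensor, was the 1 gene of the family that rose. Its signals were 758, 856 and 877 in untreated IgG and 660.1, 969 and 662 in irradiated IgG. In the eIF4E precipitates they were 1123, 1064 and 1108 from untreated and 1046, 1042 and 1125 from irradiated cells. All 6 eIF4E arrays lay above all 6 IgG arrays, although the highest IgG array, at 969, came close to the lowest eIF4E array. DDX41 rose by 0.45 (SE 0.11, limma adjusted p = 0.00152), which is 1.37-fold. With quantile normalization DDX49 also rose, and with each array centred on its median DDX39A, DDX49 and DDX50 also rose.

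The starts of these 3 genes are shown because they are the lowest, the next lowest and the highest of the family. Each line holds the 100 bases just before the RefSeq transcription start on GRCh38.p14, 5′ to 3′ on the gene's own strand: chr10:68956070-68956169, plus strand, for DDX21, chr5:134758679-134758778, plus strand, for DDX46, and chr5:177516962-177517061, minus strand, for DDX41. Capitals mark the motif matches that were searched for, on either strand, which are the ETS core CCGGAAG in DDX21 and DDX46 and the CCAAT box CCAAT in DDX41.
DDX21: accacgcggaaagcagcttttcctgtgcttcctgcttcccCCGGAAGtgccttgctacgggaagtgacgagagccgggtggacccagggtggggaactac
DDX46: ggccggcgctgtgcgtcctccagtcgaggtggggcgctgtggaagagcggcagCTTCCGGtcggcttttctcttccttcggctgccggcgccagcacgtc
DDX41: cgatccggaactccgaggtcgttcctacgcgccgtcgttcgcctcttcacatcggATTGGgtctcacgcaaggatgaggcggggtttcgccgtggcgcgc
The DDX41 stretch held none of the ETS core, and the stretches of DDX21 and DDX46 held no CCAAT box, in either strand of these windows. The share of genes with each motif is given with the shared features further on. A match describes letters and not a bound site.

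**Figure D2:**
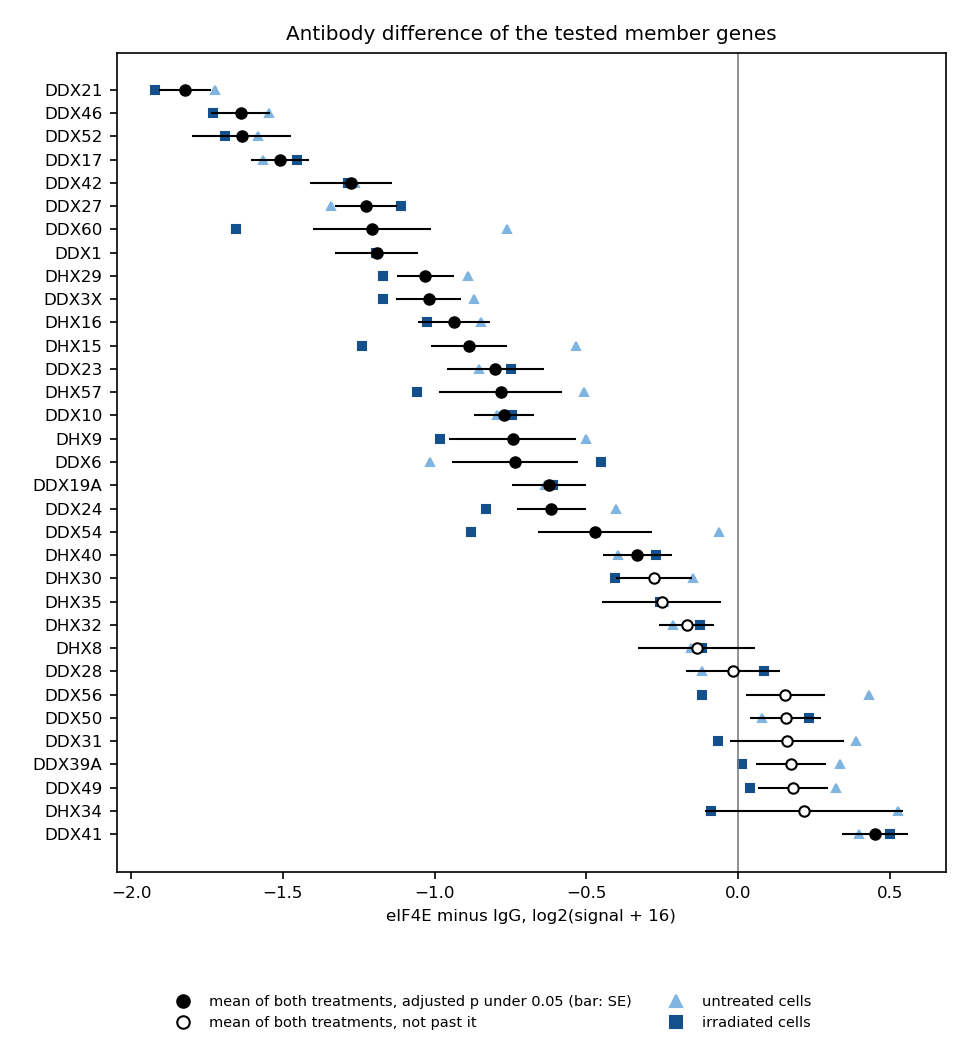
Antibody difference of each tested helicase gene (eIF4E minus IgG, log2(signal + 16), x axis), with genes ordered from the lowest to the highest. Circles are the mean over both treatments with its SE, filled where the limma adjusted p was under 0.05, and triangles and squares are the differences in untreated and in irradiated cells. DDX21 lies lowest at -1.82, and DDX41, at 0.45, is the 1 filled circle to the right of 0.

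Ribosome biogenesis helicases split into a lower group and a group near 0. Of 10 tested genes 6 fell, against 38.2% of all tested genes, and 4 did not pass (median -0.54). DDX21 and DDX52, the latter a factor of the small ribosomal subunit, were lowest, followed by DDX27, a factor of large subunit assembly, which fell by 1.23 (SE 0.10), and DDX10, which fell by 0.77 (SE 0.10). DDX24, a nucleolar helicase, fell by 0.62 (SE 0.11). DDX54 fell by 0.47 (SE 0.19, limma adjusted p = 0.0344), a call that was lost without replicate 1 of irradiated IgG (-0.38, limma adjusted p = 0.0871), without any of 5 other single arrays (limma adjusted p up to 0.0987) and in 5 other settings (no filter, array weights, quantile normalization, median centring, and replicate 1 of every group omitted). The genes that did not pass were DDX56 (0.16, SE 0.13), DDX50, the paralog of DDX21 (0.16, SE 0.12), DDX31 (0.16, SE 0.19) and DDX49 (0.18, SE 0.12). DDX50 signals ran from 1564 over a median of 1879.9 to 2171 on IgG arrays and from 1735 over 2129 to 2624 on eIF4E arrays, so this close relative of DDX21 overlapped between antibodies where DDX21 did not. DDX49 had IgG signals of 499, 369 and 392 from untreated and 460.0, 549 and 464 from irradiated cells, and eIF4E signals of 496, 489 and 599 and of 577, 486 and 453. Its arrays overlapped.

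Splicing helicases held both the second lowest and the highest gene. Of 10 tested genes 7 fell, against 38.2% of all, 1 rose, against 32.5%, and 2 did not pass (median -0.84). DDX17, a co-regulator of splicing and transcription, fell by 1.51 (SE 0.10, limma adjusted p = 1.60e-09), with IgG signals from 5670.2 over a median of 6484 to 7741 and eIF4E signals from 2193 over 2283 to 2505. DDX42, which acts near the U2 snRNP, fell by 1.27 (SE 0.13). DHX16, the human counterpart of yeast PRP2, which activates the spliceosome, fell by 0.94 (SE 0.12), and DHX15, the counterpart of PRP43, which takes the spliceosome apart, fell by 0.89 (SE 0.13). DDX23, the U5 snRNP helicase and counterpart of PRP28, fell by 0.80 (SE 0.16). DHX40 fell by 0.33 (SE 0.11, limma adjusted p = 0.0160), a call lost without replicate 3 of irradiated eIF4E (-0.27, limma adjusted p = 0.0556), without replicate 3 of untreated eIF4E (-0.27, limma adjusted p = 0.0575) and with each array centred on its median. DHX35 (-0.25, SE 0.20) and DHX8 (-0.14, SE 0.19), the counterpart of PRP22 that releases spliced mRNA, did not pass. DHX38, the counterpart of PRP16, was under the filter.

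Helicases of translation and cytoplasmic mRNA were mostly lower as well. Of 7 tested genes 6 fell, DDX6 among them, against 38.2% of all, and 1 did not pass (median -0.78). DDX3X, which helps ribosomes through long and structured leaders, had IgG signals of 5485, 7233 and 8193 from untreated and 7862, 7999.8 and 7382 from irradiated cells. Its eIF4E signals were 3794, 3844 and 3637 from untreated and 2955, 3946 and 3463 from irradiated cells. The highest eIF4E array was well under the lowest IgG array, and DDX3X fell by 1.02 (SE 0.11, limma adjusted p = 2.57e-07). DHX29, which binds the small ribosomal subunit and helps it scan, had IgG signals of 1021, 1157 and 1105 from untreated and 1303, 1313 and 1329 from irradiated cells, and eIF4E signals of 521, 637 and 593 and of 602, 581 and 546. It fell by 1.03 (SE 0.09, limma adjusted p = 5.86e-08), also without overlap. DDX1, a part of the tRNA ligase complex, was the lowest of this group. Its IgG signals were 3322, 3774 and 2917 from untreated and 4629, 2448 and 3461 from irradiated cells, and its eIF4E signals were 1438, 1513 and 1391 and 1748, 1449 and 1273. DDX1 fell by 1.19 (SE 0.14, limma adjusted p = 7.68e-07).

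The other genes placed in the group of translation and cytoplasmic mRNA overlapped between antibodies. DHX9, which resolves RNA structures and hybrids of RNA and DNA, had IgG signals of 705, 502 and 702 from untreated and 1859, 595 and 834 from irradiated cells, and eIF4E signals of 484, 453 and 386 and of 612, 419 and 447. The value of 1859 on replicate 1 of irradiated IgG stood far above the rest. DHX9 fell by 0.74 (SE 0.21, limma adjusted p = 0.00459), and without that array the difference was -0.51 (limma adjusted p = 0.00419). DDX6, which represses translation and promotes decapping in P-bodies, was dim. Its IgG signals were 87.3, 84.3 and 111 from untreated and 63.6, 93.2 and 70.4 from irradiated cells, and its eIF4E signals were 40.01, 35.3 and 39.5 and 37.3, 42.0 and 78.8. Only the last eIF4E array, replicate 3 of irradiated cells, reached into the IgG range, and DDX6 fell by 0.73 (SE 0.21, limma adjusted p = 0.00479). Since its eIF4E mean is under the filter and it was tested through its IgG arrays, that fall adds no support to the count. DHX57 fell by 0.78 (SE 0.20). DHX34, a helicase of nonsense-mediated decay, did not pass (0.22, SE 0.33). Its signals were 68.0, 12.2 and 72.4 in untreated IgG, 134, 57.1 and 46.3 in irradiated IgG, 55.1, 73.1 and 82.6 in untreated eIF4E and 90.9, 95.4 and 31.4 in irradiated eIF4E. Its largest departure was replicate 2 of untreated IgG, without which the difference was -0.051.

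**Figure D3:**
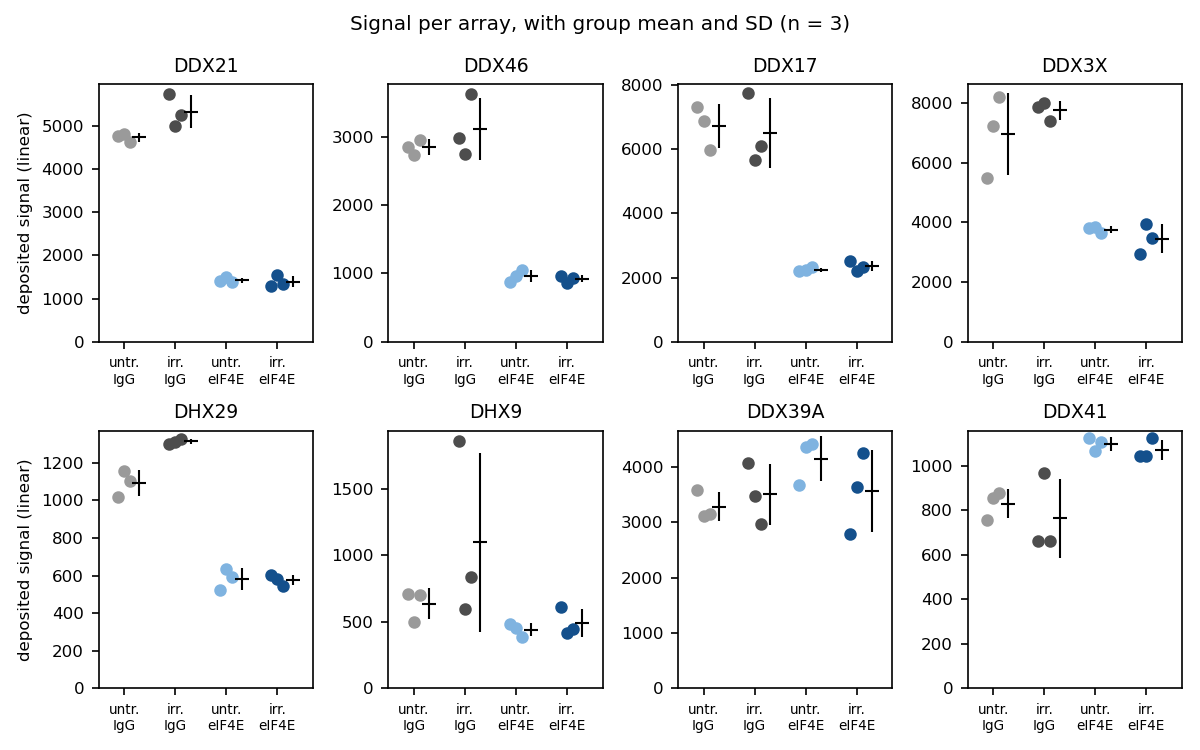
Deposited signal (linear scale, y axis from 0) of 8 helicase genes on each array, by group (x axis, untr. for untreated and irr. for irradiated), with the group mean and SD of 3 arrays beside the points. DDX21, DDX46, DDX17, DDX3X and DHX29 are lower on every eIF4E array, DHX9 has 1 irradiated IgG array at 1859, DDX39A overlaps and DDX41 is higher on every eIF4E array.

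The remaining roles held few genes. Among the mRNA export helicases, DDX19A, a close relative of the helicase that releases mRNA at the nuclear pore, had IgG signals of 388, 547 and 478 from untreated and 511, 643 and 485 from irradiated cells, and eIF4E signals of 298, 333 and 257 and of 327, 366 and 357. All eIF4E arrays were lower, and DDX19A fell by 0.62 (SE 0.12, limma adjusted p = 0.000234). DDX39A, an mRNA export helicase of the TREX pathway, had IgG signals of 3585, 3113 and 3156 from untreated and 4074, 3476 and 2969.9 from irradiated cells, and eIF4E signals of 3683, 4368 and 4415 and of 2785, 3650.4 and 4258. These overlapped, and the difference of 0.17 (SE 0.12, limma adjusted p = 0.184) did not pass. It did with array quality weights (0.33, limma adjusted p = 0.00627), without replicate 1 of every group (0.39, limma adjusted p = 0.00133), with median centring (0.29, limma adjusted p = 0.0347) and without replicate 1 of irradiated eIF4E (0.26, limma adjusted p = 0.0441).

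Neither mitochondrial helicase passed on the probe set that stands for the gene. DHX30, which supports the mitochondrial ribosome, had IgG signals of 617, 637 and 788 from untreated and 1244, 836 and 822 from irradiated cells, with eIF4E signals of 514, 715 and 616 and of 709, 695 and 734. Its difference was -0.28 (SE 0.13, limma adjusted p = 0.0597), and it passed when any of 3 single arrays was left out (limma adjusted p = 0.0391, 0.0361 and 0.0368). Its second probe set fell (-0.46, limma adjusted p = 0.00935), as did the mean of both (-0.37, limma adjusted p = 0.0190). DDX28 had IgG signals of 169.9, 128 and 169 and of 134, 169.7 and 136, and eIF4E signals of 114, 176 and 139 and of 172, 166 and 132, a difference of -0.017 (SE 0.15). DDX60, an interferon-induced helicase of antiviral RNA sensing, fell by 1.21 (SE 0.19, limma adjusted p = 3.49e-05). Its IgG signals were 194, 375 and 272 from untreated and 486, 302 and 338 from irradiated cells, and its eIF4E signals were 117, 218 and 140.3 and 90.6, 145 and 90.2, so the untreated arrays overlapped by 1 on each side while the irradiated ones did not. DHX32, whose arrays were 1189, 1249.7 and 1177 and 1271, 1176 and 1199.7 with IgG and 1059, 1018 and 1033 and 1264, 1011 and 1077 with eIF4E, did not pass (-0.17, SE 0.09), although it did without replicate 1 of irradiated eIF4E (-0.22, limma adjusted p = 0.0487), without replicate 1 of every group (-0.21, limma adjusted p = 0.0463) and with array quality weights (-0.19, limma adjusted p = 0.0434).

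All probe sets above the filter were also compared singly, in a separate limma fit over 10566 probe sets. Of the family's 51 probe sets there, from 34 genes, 34 fell, against 38.3% of all probe sets, 2 rose, against 31.5% of all, and 15 did not pass. Of 14 genes with several such probe sets, 8 had more than 1 that passed and 0 had probe sets that passed in opposite directions. Among the 8 were DHX29 and DHX9, whose second probe sets were above the filter only through their IgG arrays. Their eIF4E medians, 49.0 and 45.9, were under it, so their falls add no support to these counts. DDX6 is among the 34 as well. The size differed more than the direction. DDX17 was at -1.51 on its main probe set and at -0.024 on the other, which is of the less specific kind. The mean of all 4 DDX17 probe sets on the array, of which the other 2 were under the filter, did not pass in irradiated cells (-0.41, limma adjusted p = 0.0775). DDX3X was at -1.02 on its main probe set and at -0.44, -0.38 and -0.36 on the other 3, and all 4 fell. DDX52 was at -1.64, -1.40 and -0.46, and DDX24 at -0.62 and -1.17. DDX49, which did not pass on its main probe set, rose on the second (0.70, limma adjusted p = 0.00195). DDX19A was at -0.62 and at 0.23, the latter not past the threshold, and the mean of both probe sets did not pass (-0.20, limma adjusted p = 0.165). DDX28 was the other gene with both signs. DDX11, a DNA helicase, was tested here alone: of its probe sets of the less specific kind, 1 fell (-0.53, limma adjusted p = 0.0485) and 1 did not pass (-0.25, limma adjusted p = 0.340). Which transcripts each probe set reads was not tested.

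**Figure D4:**
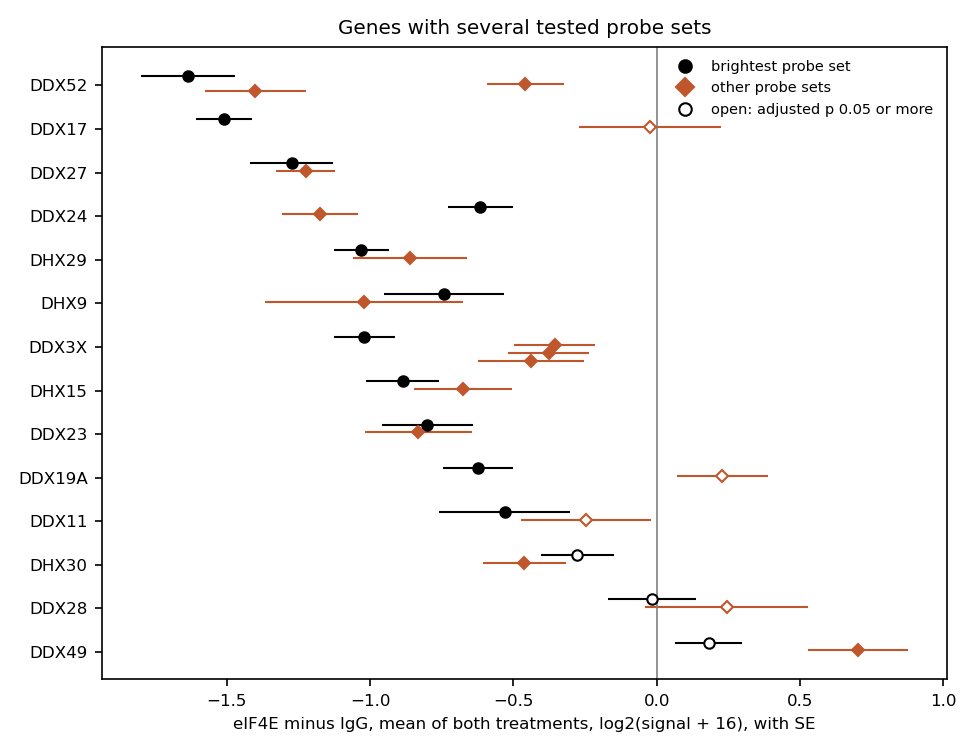
Antibody difference (eIF4E minus IgG, mean over treatments, log2(signal + 16), with SE) of each tested probe set of the 14 genes that have several. Black circles are the brightest probe set of a gene, diamonds the others, and open symbols did not pass. For DDX27 and DDX11 the brightest is of the less specific kind and is not the one used for the gene. Most genes keep 1 direction with different sizes, as DDX17 with -1.51 and -0.024.

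The pattern was present in both treatments. In untreated cells 18 of the 33 genes fell, DDX6 among them, against 31.7% of all genes, and 1 rose, against 27.2% (median -0.51, against -0.082 over all genes). DDX6 was tested through its IgG arrays, so its fall adds no support to this count. In irradiated cells 19 fell, against 32.3%, and 1 rose, against 27.2% (median -0.75, against -0.064). The sign was the same in both for 29 of the 33, and 16 genes fell in both. The share of all genes was not computed for either count, so neither is read as particular to the family. Of the 16 genes that fell in both, 8 were followed within each treatment through the alternatives, and the rest were not. DDX60 lost the untreated call without any of 4 single untreated arrays (limma adjusted p up to 0.135), and with quantile normalization, median centring or no filter. DHX15 lost it without any of 3 single untreated arrays (limma adjusted p up to 0.0811) or with median centring. DDX17 lost the irradiated call as the mean of its probe sets (-0.41, limma adjusted p = 0.0775). Among the genes not followed was DDX24, whose untreated call was near the threshold (-0.40, limma adjusted p = 0.0401). In untreated and irradiated cells DDX21 was at -1.72 and -1.92, DDX46 at -1.55 and -1.73, DDX3X at -0.87 and -1.17, and DHX29 at -0.89 and -1.17. DDX41 rose by 0.40 in untreated cells (limma adjusted p = 0.0354) and by 0.50 in irradiated cells (limma adjusted p = 0.0107), the former call being lost when any of 5 single untreated arrays was omitted (limma adjusted p = 0.0591 to 0.103).

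For 5 genes the call was made in 1 treatment. DDX6 and DHX40 fell in untreated cells, and DHX57, DHX9 and DDX54 in irradiated cells. The share of all genes called in 1 treatment was not computed, so this count is not read as particular to the family. DDX6 was at -1.02 (limma adjusted p = 0.00717) and -0.45 (limma adjusted p = 0.198), and DHX9 was at -0.50 (limma adjusted p = 0.155) and -0.98 (limma adjusted p = 0.00921) in untreated and irradiated cells. Without replicate 1 of irradiated IgG, DHX9 was at -0.50 (limma adjusted p = 0.0291) and -0.52 (limma adjusted p = 0.0451), so both treatments then passed with like values. DHX57 was at -0.51 (limma adjusted p = 0.140) and -1.06 (limma adjusted p = 0.00465), and the former passed without replicate 3 of untreated IgG (-0.78, limma adjusted p = 0.0320). Its difference in irradiated cells was -0.86 (limma adjusted p = 0.0263) without replicate 1 of irradiated IgG. None of these genes passed in the test of the difference between treatments itself, which follows.

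Irradiation changed 0 of the 33 genes in the eIF4E precipitates, 0 in the IgG precipitates and 0 in the difference between both effects by limma. The share of all genes that passed was 0% in each of the 3 comparisons. At an unadjusted p under 0.05 there were 1, 5 and 4 of the 33, and 82, 475 and 216 of all 7178 genes. Standard errors of a single irradiation difference ran from 0.12 to 0.46 within the family, so small changes could not be detected with 3 arrays a group. In the IgG precipitates 27 of the 33 genes had a higher mean after irradiation (median 0.17), against 50.6% of all genes (median 0.0045). Without replicate 1 of irradiated IgG that count was 22 (median 0.11), against 55.1% of all genes, and without replicate 3 of untreated IgG it was 23. In the eIF4E precipitates 16 of the 33 were higher (median -0.014), against 50.3%. The median of the difference between both effects was -0.18, against -0.0068 over all genes. The comparisons share arrays, since the effect in either antibody enters their difference.

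The genes with the smallest irradiation p-values did not pass the threshold. In the eIF4E precipitates these were DDX27 (0.35, SE 0.15), DDX60 (-0.47, SE 0.28) and DHX15 (-0.27, SE 0.18), all at a limma adjusted p of 1.00. DDX27 had eIF4E signals of 519, 484 and 441 in untreated and 668, 586 and 601 in irradiated cells, with no overlap, while its IgG signals were 1298, 1241 and 1187 and 1556, 1397 and 1135. In the IgG precipitates they were DDX56 (0.53, SE 0.18, limma adjusted p = 0.631), DHX30 (0.48, SE 0.18) and DDX54 (0.70, SE 0.27). DDX56, a nucleolar helicase, had IgG signals of 419, 343 and 451 and of 662, 688 and 448 after irradiation, and eIF4E signals of 489, 632 and 531 and of 588, 486 and 555. DDX54 had IgG signals of 153, 88.6 and 162 and of 287, 217 and 174 after irradiation, and eIF4E signals of 90.3, 149 and 141 and of 137, 94.2 and 112. After irradiation all 3 IgG arrays of DDX54 were above the untreated ones, 2 of 3 were for DDX56, and the eIF4E arrays of both overlapped. The IgG arrays of DDX21, DDX24, DHX29 and DHX30 were also higher after irradiation without overlap. The share of all genes separated by irradiation was not computed for either antibody. Without replicate 1 of irradiated IgG the IgG difference was 0.45 for DDX56, 0.29 for DHX30 and 0.52 for DDX54.

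For the difference between both irradiation effects the smallest p-values were those of DHX15 (-0.71, SE 0.25, unadjusted p = 0.0127 and adjusted p = 0.999 by limma), DDX60 (-0.89, SE 0.39) and DDX54 (-0.82, SE 0.38). DHX15 had IgG signals of 6997, 5724 and 4854 in untreated and 9821, 6361 and 7688 in irradiated cells, and eIF4E signals of 4689.9, 3689 and 3691 and of 3260.2, 3852 and 2886. The IgG arrays tended upward after irradiation and the eIF4E arrays downward, with overlap in both. Without replicate 1 of irradiated IgG, at 9821, the difference between the effects of DHX15 was -0.54. For DDX60 and DDX54 the difference was -0.70 and -0.64 without that array.

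**Figure D5:**
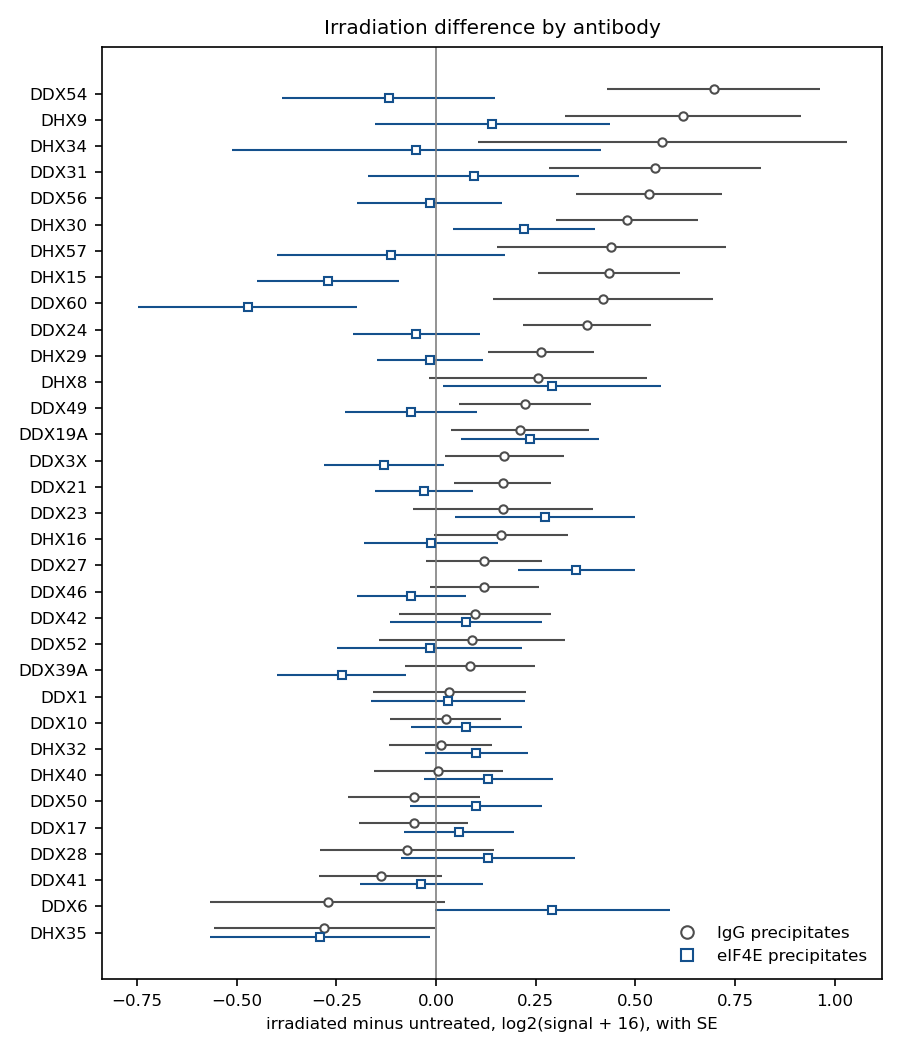
Irradiation difference (irradiated minus untreated, log2(signal + 16), x axis, with SE) of each tested helicase gene in IgG (circles) and eIF4E (squares) precipitates, ordered by the IgG value. All symbols are open because 0 genes passed in either antibody, 27 of 33 circles lie to the right of 0 and 16 of 33 squares do.

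Genes that work with these helicases were taken from lists of known partners and compared in the same way, averaged over treatments. Over all tested genes 38.2% fell and 32.5% rose. Of 6 tested genes of the list of eIF4A and its cofactors, 5 fell and 0 rose (median -0.55). EIF4B, a stimulator of eIF4A, was lowest at -0.98 (SE 0.11), EIF4A3, the eIF4A relative of the exon junction complex, fell by 0.48 (SE 0.13), and PAIP1, at 0.23 (SE 0.12), did not pass. EIF4A1 and EIF4A2 were not analysed here. Of 10 tested RNA helicases of other families 7 fell and 1 rose (median -0.87), from DICER1, which cuts microRNA precursors, at -1.95 to IGHMBP2 at 0.92. Of 16 tested G-patch proteins, a class that holds cofactors of DEAH box helicases, 10 fell and 1 rose (median -0.56), from GPATCH8 at -1.78 to GPATCH3 at 0.92. Of 8 tested decapping and P-body genes, which include partners of DDX6, 6 fell and 0 rose (median -0.61), from DCP2, the decapping enzyme, at -1.47 to EDC3 at 0.41, which did not pass.

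The exon junction and export list stood on the other side of 0 by its median. Of 14 tested genes 7 rose, against 32.5% of all genes, and 4 fell, against 38.2% (median 0.43), from THOC2, the largest subunit of the THO complex, at -1.94 (SE 0.14) to NXT1, the small subunit of the mRNA export receptor, at 1.69 (SE 0.11). Other members that rose were THOC6 (1.25, SE 0.11), MAGOHB (1.16, SE 0.13) and RNPS1 (0.98, SE 0.17), and PNN (-1.37, SE 0.11) and NUP214 (-1.05, SE 0.16) fell. With the mean of a gene's probe sets in place of 1 probe set, 5 rose and 5 fell, so the lean to the higher side was then absent. A difference between this list and the helicases was not tested.

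Features that the choice of genes did not use were compared across the family as a description. Of the 33 tested genes 31 had an entry in the RefSeq promoter table, 5 of them with several starts, of which the first listed was used. In the 100 bases before the start, the ETS core CCGGAAG was present in 11 of 31 (35.5%), against 11.9% of 6055 tested genes and 5.95% of all 27305 promoters in the table. The CCAAT box CCAAT was in 10 of 31 (32.3%), against 22.5% and 18.7%, and the GC box GGGCGG in 12 of 31 (38.7%), against 54.3% and 31.3%. The TATA box TATAAA was in 0 of 31, against 2.51% and 5.34%. Each motif was searched on both strands. None of the 4 lies within another, although matches of different motifs could share letters at their ends. The GC content of the first 50 transcribed bases ran from 46% over a median of 64% to 76% in the 31 genes, and the median over tested genes was 68%. Spearman's rho with the antibody difference was -0.23 over the 31 genes and 0.040 over the 6055, where genes share arrays and are not independent. For the span of the gene on the chromosome, rho was -0.19 over the 33 genes and -0.47 over 7176 genes.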

How the data were processed

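The authors deposited an intensity for each probe set on each array, linear in scale and made with MAS5 per the submitters' processing notes, of no stated version. The trimmed mean of each array's deposited intensity was 500.2, so values are relative within an array. Signals were used with no further normalization. Precision is limited by 3 arrays a group.

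Of 22277 probe sets, 19064 had 1 gene symbol, 1043 several, 2108 none and 62 were controls. Of the single-gene probe sets 19052 were updated to RefSeq symbols (GRCh38.p14), which changed 0 member symbols. There were 7 probe sets that name a helicase with another gene, and these lay outside the rule. No sample column was left unmatched.

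Differences were fitted on log2(signal + 16) with limma 3.58.1 in R 4.3.3 (lmFit, eBayes with a trend), with 4 group means over 12 arrays and Benjamini-Hochberg adjustment over 7178 genes. Figures used matplotlib 3.10.9. The fit was tested on simulated data. The members, roles, partner lists (eIF4A and cofactors, other RNA helicases, G-patch cofactors, exon junction and export, decapping and P-body), markers and alternatives were chosen with earlier results of these data known. By the naming rule every tested member is named, and array values are given for the lowest and highest gene of each role, the 3 genes with the smallest irradiation p-values in each comparison, and fixed genes (DDX3X, DHX29, DDX6, DHX9, DDX21, DDX41, where tested). DHX36 was not analysed here, and values of DDX3Y are not given. Array values of DDX17 and DDX50, and the partner genes named beyond the ends of a list, were added after their values were seen. Protein sequences were not used here, and promoter stretches are shown instead.

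Same-numbered untreated and irradiated eIF4E arrays deviated together (r = 0.374, 0.208 and 0.181 for numbers 1, 2 and 3), a pattern taken as pairing, although the labels name no shared culture or day. The other 5 pairs of groups had 1 or more numbers under 0.1. The alternatives tried were the replicate block, fits on only the compared groups, array weights, a fit with no variance trend, quantile normalization and median centring, pseudocounts of 64 and 1, a 60th percentile filter or none, single probe sets or their means, at least 1.5-fold, and leaving out single arrays or replicate 1 throughout.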

Additional observations from a re-analysis of the deposited data

Results flagged for a closer look

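One probe set that names DDX39B, the mRNA export helicase UAP56, together with a readthrough gene (ATP6V1G2-DDX39B) and a small nucleolar RNA (SNORD84) lay outside the rule for members because it has several genes, and it was higher on every eIF4E array. Its signal ran from 915 over a median of 1062 to 1333 on the 6 IgG arrays and from 2039 over 2560.0 to 3206 on the 6 eIF4E arrays, a difference of 1.19 on the log2 scale with no overlap. It was marked because it shows a signal outside the tested genes that exceeds the IgG controls. Such separation was common, since 23.1% of all tested genes were also higher on every eIF4E array. The second probe set with the same genes was dim, with an overlapping difference of -0.48.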

How the results depend on the processing

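The total counts of the family kept within 1.5 times of their value under all alternatives run, but the few higher genes did not. The average over treatments gave 22 genes past the threshold, 20 to 24 with 1 array omitted and 16 to 23 otherwise, the lowest with the filter at the 60th percentile, which tests 22 of the genes. Untreated cells gave 19 (14 to 21 with 1 array omitted, 15 to 24 otherwise) and irradiated cells 20 (20 to 21, and 15 to 21 otherwise). In untreated cells 1 higher gene became 5 with array weights, 4 with median centring or without replicate 1 of every group, 3 with quantile normalization or only the groups compared, 2 with the block, probe set means or the 60th percentile filter, and 0 to 2 with 1 array omitted, and a 1.5-fold minimum left 0. Irradiation gave 0 under every alternative. The numbers with 1 array omitted were 5 to 6 for eIF4A and its cofactors, 8 to 9 for other RNA helicases, 11 to 12 for G-patch cofactors, 11 to 11 for exon junction and export and 4 to 6 for decapping and P-body genes. With the replicate block the average was 22 and untreated and irradiated cells 20 each, and the block changed no count by over 1.5 times.

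Scaling moved the all-gene median of the average difference from -0.074 to 0.015 with quantile normalization and to 0.037 with median centring, a shift of over 0.1 in the latter. Quantile normalization then gave 20 members lower and 2 higher, and median centring 19 lower and 4 higher, while over all genes 2744 lower and 2334 higher became 2375 lower and 2633 higher with centring and 2458 and 2547 with quantiles. The 1.5-fold minimum left 3 of 5 genes of eIF4A and its cofactors, and the 60th percentile filter left 4 of 8 other RNA helicases and 3 of 6 decapping and P-body genes, with 6 and 3 of them tested. Only genes that did not pass turned direction. DDX28 went to 0.082 with quantile normalization, 0.094 with median centring, 0.085 as the mean of its probe sets and 0.024 without replicate 1 of every group. Without replicate 1 of every group DDX50 went to -0.033 and DHX8 to 0.061, and DHX34 went to -0.020 as the mean of its probe sets. With single arrays omitted DDX28 ranged from -0.091 to 0.051, DHX34 from -0.051 (without replicate 2 of untreated IgG) to 0.42 and DHX8 from -0.28 to 0.0066 (without replicate 1 of irradiated IgG). The cause of these turns was not tested.
DDX17 went from -1.51 to -0.61 and DDX3X from -1.02 to -0.51 as means of all their probe sets, those under the filter included, both still past the threshold.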

Other observations

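The other probe sets that name a helicase together with another gene were also outside the rule, and they are given as values without a test. DDX5, the partner of DDX17 in splicing and transcription, shares its probe set with MIR5047 and MIR3064. It read from 7160 over a median of 8638 to 13494 on IgG arrays and from 4691 over 4928 to 6392 on eIF4E arrays, lower without overlap, by a difference of -0.80. The probe set of DDX27 and SS18 was also lower without overlap, at -0.99. Of all tested genes, 26.7% were lower without overlap. Overlapping arrays were seen for DDX19A with DDX19B (0.21), DDX47 with APOLD1 (0.17) and DDX11 with DDX12P (0.11). DDX5 and the brighter probe set of DDX39B thus lay on opposite sides of 0 on these probe sets.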
